A study of Papio anubis with 2 samples.

Results

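Some H3K4me3 peaks of the adult baboon subventricular zone lay neither alone nor in long dense arrays but in mid-sized groups, and these groups are described here. Neighbouring peaks were linked wherever the next start lay at most 10 kb beyond the highest previous end, and groups of 3 to 9 linked peaks on rheMac2 chromosomes 1 to 15, 17 and 18 were kept. They numbered 261 and held 1095 peaks, 12.6% of the 8689 peaks on those 17 chromosomes and 11.05% of the 9910 peaks in the whole list. The same 17 chromosomes also held 2973 isolated peaks, 641 pairs and 119 groups of 10 or more peaks, called dense groups below.

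The material was chromatin of Papio anubis cells taken from the subventricular zone of an adult brain and labelled neural progenitors. Cells were pulled out with beads carrying antibodies against GFAP, Nestin, Vimentin, PSA-NCAM or Doublecortin, markers of glial and progenitor cells or of immature neurons, and which of these yielded the present libraries is not labelled. H3K4me3 and total histone H3, which the labels' protocols give as the target for normalisation, have 1 library each, from chromatin fixed in 1.1% formaldehyde and sheared to fragments of 200 to 500 bp. No age, sex or number of animals is given, the total H3 library was not analysed here, and the cell type could not be checked against markers because the list carries no genes and no signal values.

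As background, H3K4me3 is written by the SET1 and MLL methyltransferase complexes, mostly at promoters rich in CpG, where it is read by proteins that help to recruit the transcription machinery. It sits on the nucleosomes that flank a start site and is low over the nucleosome-depleted start itself, so a marked promoter can appear as several separated maxima. Broad H3K4me3 domains are known from genes that define a cell type, including those of neural progenitors. A group of peaks on a genomic axis can therefore be 1 promoter listed in pieces or several marked sites side by side, and a list of positions does not distinguish these.

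The groups were chosen by the number of peaks and the gaps between them, so sizes, spans and spacings are given as descriptions without tests. With 1 library there is also no replicate spread. Intervals in brackets are exact 95% binomial intervals for shares and order-statistic intervals for medians. They cover counting error over groups or peaks only and are too narrow, because groups that lie close together and peaks of 1 group are not independent. Peaks were not tied to genes, exons or introns, since no annotation of rheMac2 was used here, and read depth is unknown.

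Most groups were small and short. Those with 3 peaks numbered 131 (50.2%), those with 4 peaks 64 and those with 5 peaks 21, while 6, 7, 8 and 9 peaks occurred in 11, 10, 11 and 13 groups. Just outside the size limits lay the 641 pairs, with a median span of 0.61 kb, and 13 groups of 10 peaks, with a median span of 15.57 kb. The span from first start to last end ran from 0.53 to 25.69 kb, with a median of 3.19 kb (interval 2.65 to 3.97) and quartiles of 1.43 and 7.53 kb. Median span was 1.71 kb at 3 peaks, 3.66 kb at 4, 5.25 kb at 5 and 11.87 kb at 9. Groups of 1 size still differed widely, from 0.53 to 14.91 kb at 3 peaks and from 3.45 to 25.67 kb at 9.

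**Figure D1:**
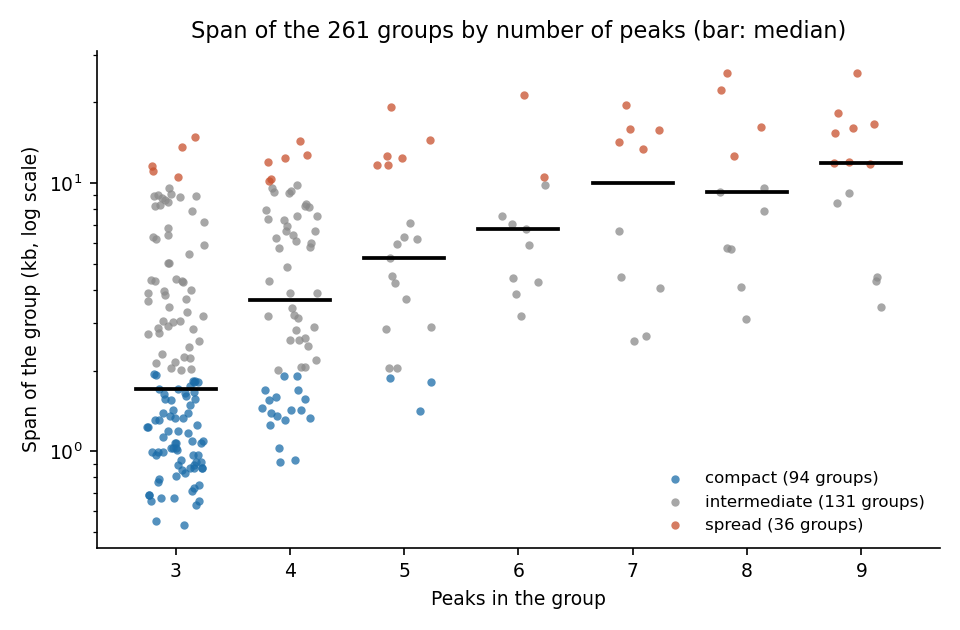
Span of each of the 261 groups in kb on a log axis, by the number of peaks in it; each point is 1 group, black bars are medians, colours are span classes, and points are shifted sideways at random for legibility. Medians run from 1.71 kb at 3 peaks to 11.87 kb at 9 peaks, and at 3 and at 4 peaks all 3 span classes occur.

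Groups were divided by span into compact (at most 2 kb), intermediate (over 2 and at most 10 kb) and spread (over 10 kb). Compact groups numbered 94 (36.0%, interval 30.2% to 42.2%) and held 306 peaks, and 73 of them were groups of 3. Intermediate groups numbered 131 (50.2%, 44.0% to 56.4%) and held 569 peaks. Spread groups numbered 36 (13.8%, 9.85% to 18.6%), held 220 peaks and occurred at every size from 3 to 9. Listed peaks covered a median of 42.1% of the span in compact groups, 13.3% in intermediate and 5.92% in spread ones. That is a median density of 2.80, 0.886 and 0.394 peaks per kb.

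The 5 smallest groups were all of 3 peaks of 150 bp separated by gaps of 10 to 150 bp. The smallest lay on chromosome 11 at 48323162 to 48323691, where gaps of 10 and 70 bp gave a span of 530 bp. On chromosome 3, gaps of 10 and 90 bp gave 550 bp at 178481082 to 178481631. On chromosome 6, 2 gaps of 90 bp gave 630 bp at 134626982 to 134627611. On chromosome 5, gaps of 90 and 110 bp gave 650 bp at 137291862 to 137292511, and on chromosome 15, gaps of 150 and 50 bp gave 650 bp at 39513042 to 39513691. These 5 were near-continuous blocks, with 69.2% to 84.9% of the span inside listed peaks, and each lay at least 12.25 Mb from the nearest dense group.

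At the other end, the 5 largest spans belonged to groups of 6 to 9 peaks in which most gaps exceeded 1 kb. On chromosome 11, 8 peaks spanned 25.69 kb at 35160142 to 35185831, with gaps of 190 to 7570 bp. On chromosome 10, 9 peaks spanned 25.67 kb at 66049442 to 66075111, with gaps of 30 to 7910 bp. On chromosome 3, 8 peaks spanned 22.19 kb at 69891682 to 69913871, and none of its gaps was under 690 bp. The remaining members of this set lay on chromosome 9 from position 39268682 to 39289951 (6 peaks, 21.27 kb) and further along chromosome 11, from 36085042 to 36104551 (7 peaks, 19.51 kb). Listed peaks filled only 4.23% to 5.41% of these 5 spans. Of them, the 2 on chromosome 11 and the 1 on chromosome 10 lay within 100 kb of a dense group, at 29.11, 16.41 and 21.53 kb, whereas those on chromosomes 3 and 9 were 2.69 and 6.04 Mb from one.

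The 13 groups of 9 peaks, at the upper size limit, showed both layouts. Their spans ran from 3.45 to 25.67 kb, with 5 intermediate groups and 8 spread ones. The most compact lay on chromosome 7 at 169797882 to 169801331, where 9 peaks followed each other at gaps of 30 to 730 bp. The next lay on chromosome 10 at 61423922 to 61428231 (4.31 kb, gaps of 10 to 1290 bp) and on chromosome 5 at 4567502 to 4571951 (4.45 kb, gaps of 110 to 810 bp). The groups on chromosomes 7 and 5 had no gap over 1 kb, so each stays in 1 piece when gaps of at most 1 kb are joined. They were not continuous, since listed peaks covered only 39.1% and 32.1% of these spans. The group with the same number of peaks on chromosome 1 at 19298782 to 19315391 was divided by gaps of up to 4.71 kb.

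**Figure D2:**
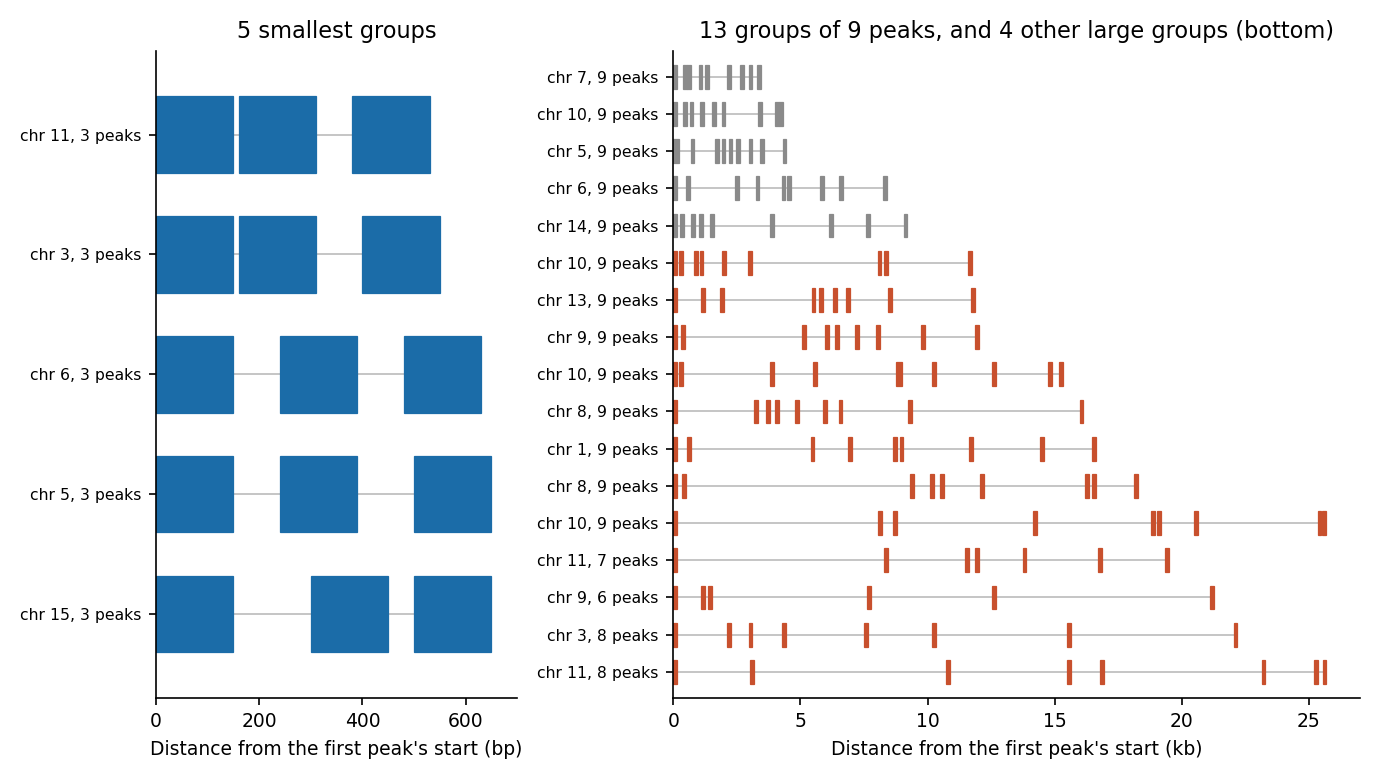
Peak layout in the 5 groups of smallest span (left, distance in bp) and in all 13 groups of 9 peaks followed at the bottom by the other 4 groups of largest span (right, distance in kb); each row is 1 group, each block 1 listed peak, distance is counted from the first peak's start, and blue, grey and orange mark compact, intermediate and spread groups. The 5 smallest groups end within 650 bp, and groups of 9 peaks range from 3.45 kb to 25.67 kb.

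Gaps inside groups were mostly short, with a tail up to the linking limit. Of 834 gaps, 552 (66.2%) were at most 1 kb, the median was 530 bp and the range was 10 to 9990 bp. Gaps under 100 bp made up 13.4%, those of 100 to under 200 bp 15.2%, and those over 5 kb 8.51%. The median gap was 210 bp in compact groups, 670 bp in intermediate and 1860 bp in spread ones, an order that the span classes themselves impose. Near the linking limit, 5 groups were held together by an internal gap of 9410 to 9990 bp. They lay on chromosome 4 at 138157242, chromosome 7 at 7191662, chromosome 10 at 60964722, chromosome 14 at 66348002 and chromosome 15 at 103992182, and all 5 were spread groups of 3 or 4 peaks. Just beyond the limit, the group on chromosome 3 at 70552402 to 70556911 had another group 10.47 kb away. These 6 were singled out after their values were seen.

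When peaks with gaps of at most 1 kb were joined inside each group, the 261 groups resolved into 543 runs. A group was 1 run in 98 cases (37.5%, interval 31.7% to 43.7%), 2 runs in 93 (35.6%), 3 runs in 44 (16.9%) and 4 or more in 26. Of the compact groups 85 of 94 were 1 run, of the intermediate groups 82 of 131 were 2 runs, and of the spread groups 20 of 36 had 4 or more. Runs that held at least 2 peaks numbered 287 and had a median width of 0.97 kb, and 29 of them were 2 kb or wider. The widest were the whole 9-peak group on chromosome 5 (4.45 kb), a run of 6 peaks on chromosome 8 at 7082122 to 7085591 (3.47 kb) and the whole 9-peak group on chromosome 7 (3.45 kb).

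Groups of 2 runs mostly held a lone peak, in part because few peaks leave few ways to divide. Of these 93 groups, 50 were 2 peaks plus 1, and these were the groups of 3 peaks, which cannot divide otherwise. The 27 groups of 4 peaks with 2 runs were 3 plus 1 in 17 cases and 2 plus 2 in 10. In 72 of the 93 at least 1 run was a lone peak. The space between the runs had a median of 2.55 kb (quartiles 1.45 and 5.29 kb), against the lower bound of 1 kb set by the joining. The most fragmented groups had 7 runs, and the first 3 of them by position were the 9-peak group on chromosome 1 at 19298782, the 8-peak group on chromosome 3 at 69891682 and a 9-peak group on chromosome 10 at 61224142 to 61239471. In these 3 the largest gap was 4.71, 6.41 and 3.43 kb, so no internal gap came near the linking limit. Outside it, the group on chromosome 3 had another group 11.03 kb away.

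The 131 groups of 3 peaks show the layouts in their simplest form. In 66 (50.4%, interval 41.5% to 59.2%) both gaps were at most 1 kb, in 50 (38.2%, 29.8% to 47.1%) only 1 gap was, and in 15 (11.45%, 6.55% to 18.2%) neither was. Their median spans were 1.02, 3.32 and 5.89 kb. Among the 66, the shorter centre distance had a median of 260 bp and the longer one 570 bp, an order that holds by definition. In 30 of them the shorter distance was 200 to under 300 bp, and in 3 both distances were in that class. No expected number was computed for either count. These 3, noted after their values were seen, were the groups on chromosomes 5 and 6 given above and a group of 670 bp on chromosome 14 at 83972962 to 83973631. The longer gap came first along the chromosome in 62 of the 131 groups and second in 66, with 3 ties.

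In groups of 4 or more peaks, the largest gap was set beside the total gap length. With few gaps it holds a large share by construction, and 64 of these 130 groups had only 4 peaks. It made up a median of 55.95% (quartiles 44.9% and 72.6%) and over 50% in 81 groups, and no expected share was computed. It lay at an end of the group, setting off the first or last peak, in 65 groups (50%, interval 41.1% to 58.9%). End gaps were on average 51.8% of the gaps in these groups, a share near that value.

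Spacing was next compared between neighbours with a gap of at most 1 kb, as distance between peak centres, since nucleosomes recur at regular short intervals along chromatin. The median over the 552 such neighbours was 400 bp (interval 380 to 420, quartiles 260 and 665 bp). The fullest class of 100 bp was 200 to under 300 bp, with 149 distances (26.99%, interval 23.3% to 30.9%). Member peaks were at least 150 bp wide and did not overlap, so no distance could fall below 150 bp. The class of 100 to under 200 bp (21 distances) was thus incomplete, and the fullest class was the first complete one. Its position is partly set by peak width and is not read as nucleosome spacing. On the same chromosomes the class of 200 to under 300 bp held 36.3% (32.1% to 40.7%) of 496 distances in pairs. It held 13.4% (12.0% to 14.8%) of 2454 in dense groups, where the fullest class was 300 to under 400 bp. The medians were 340 bp in pairs and 480 bp in dense groups. The values of the mid-sized groups thus lay between those of the pairs and the dense groups, and the difference was not tested because the distances were part of the rule that made these classes.

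Within the mid-sized groups the fullest class was 200 to under 300 bp at every span. It held 29.1% (22.9% to 35.8%) of the 203 distances in compact groups, 26.4% (21.3% to 31.96%) of the 277 in intermediate groups and 23.6% (14.4% to 35.1%) of the 72 in spread groups. Distances of 500 bp or more made up 31.5%, 41.9% and 50% of them. Compact groups cannot hold many long distances within 2 kb, so this last order partly follows from the span limit. Starts lie on a grid of 20 bp and most peaks have 1 width, 150 bp, so distances take fixed steps, and shearing to 200 to 500 bp bounds how finely they can be read.

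**Figure D3:**
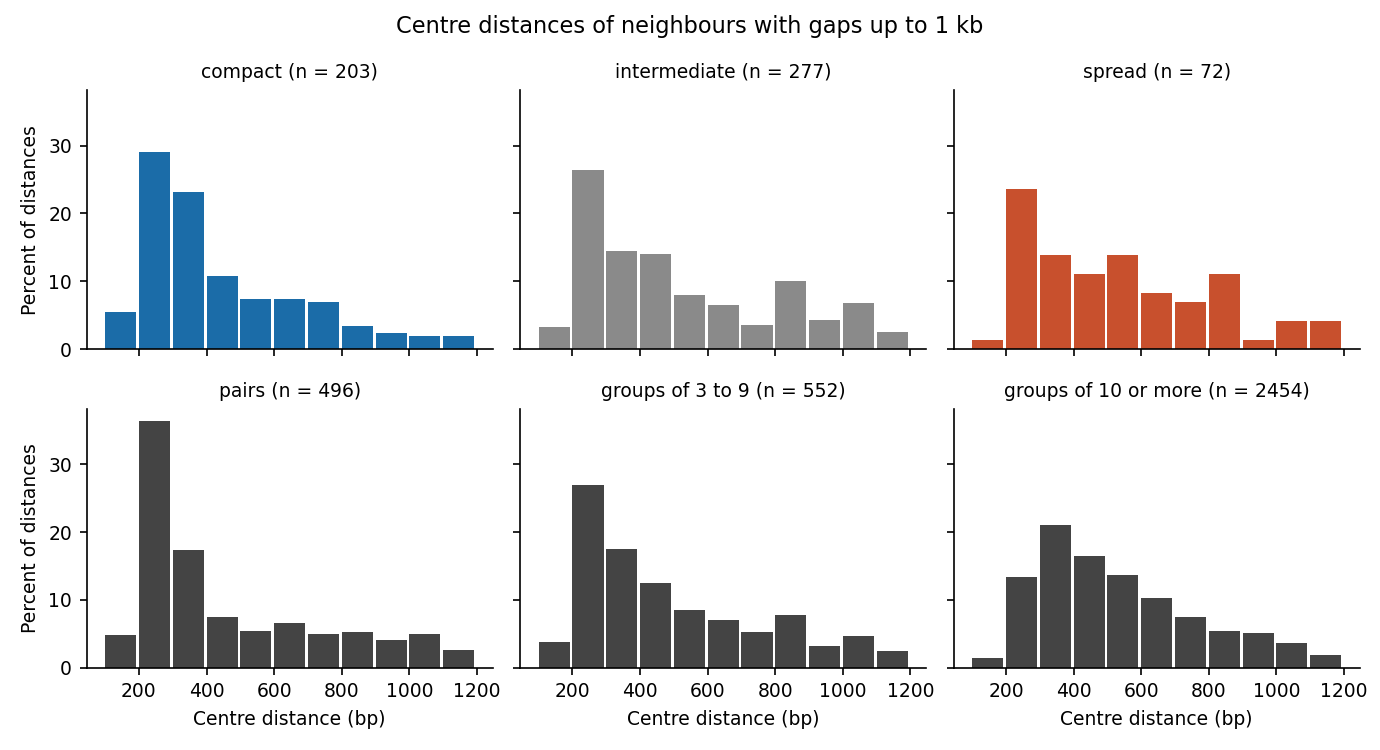
Share of centre distances between neighbouring peaks with a gap of at most 1 kb, in classes of 100 bp from 100 to 1200 bp, for the 3 span classes of the mid-sized groups (top) and for pairs, all mid-sized groups and dense groups on the same chromosomes (bottom); n is the number of distances. The class from 200 bp is the fullest in the top panels and in pairs, whereas in dense groups the class from 300 bp is.

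Peak width was not used by the rule. Of the 1095 member peaks, 1077 were 150 bp wide and 18 (1.64%, interval 0.977% to 2.59%) were 190 to 310 bp wide. On the same chromosomes the share of wider peaks was 1.78% (1.34% to 2.33%) in isolated peaks, 1.25% (0.715% to 2.02%) in pairs and 1.08% (0.756% to 1.49%) in dense groups, and the interval of the mid-sized groups overlapped each of these. Spread groups held 7 of the 18, 3.18% of their peaks (1.29% to 6.45%), and compact groups held 4, 1.31% of theirs (0.357% to 3.31%). The widest member, 310 bp, was found in a group of 5 peaks on chromosome 14, from 88173462 to 88173771. Peaks of 290 bp followed, from 168430882 to 168431171 on chromosome 7 and from 59155402 to 59155691 on chromosome 10. The 18 were spread over groups, with 12 groups holding 1 and 3 groups holding 2, on chromosome 2 at 12290562 to 12297171, chromosome 6 at 29224222 to 29240071 and chromosome 10 at 59203122 to 59219311.

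The surroundings of the groups were read from the distance to other linked groups. The nearest group of any size lay at a median of 53.9 kb (quartiles 23.05 and 175.9 kb), against 176.7 kb for isolated peaks, 118 kb for pairs and 24.8 kb for dense groups. Another group within 100 kb was present for 167 of 261 (63.98%), against 36.0% of isolated peaks, 46.3% of pairs and 74.8% of dense groups. Of the 516 adjoining groups on either side, 299 (57.9%) were isolated peaks, 87 (16.9%) pairs, 86 (16.7%) other mid-sized groups and 44 (8.53%) dense groups. Over the 17 chromosomes, mid-sized groups were 6.54% and dense groups 2.98% of all linked groups. Class and surroundings are read from the same peak positions, and the linking rule keeps separate groups over 10 kb apart, so these values are descriptions.

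A minority of the mid-sized groups lay near a dense group, and all but 1 of these spanned over 2 kb. Within 100 kb of a dense group lay 39 of 261 (14.9%, interval 10.9% to 19.9%), against 42 of 2973 isolated peaks (1.41%, 1.02% to 1.91%) and 14 of 641 pairs (2.18%, 1.20% to 3.64%). Of the dense groups themselves, 60 of 119 (50.4%, 41.1% to 59.7%) had another dense group that close, and just above the size limit 30.8% of the groups of 10 peaks did. The pooled 14.9% mixes sizes. The share was 6.11% (2.67% to 11.7%) of the 131 groups of 3 peaks and 21.2% (13.1% to 31.4%) of the 85 groups of 4 or 5. It was 28.9% (16.4% to 44.3%) of the 45 groups of 6 to 9, close to the value at 10 peaks. By span, 1 of 94 compact groups (1.06%, 0.0269% to 5.79%), 24 of 131 intermediate groups (18.3%, 12.1% to 26.0%) and 14 of 36 spread groups (38.9%, 23.1% to 56.5%) were that close. These shares depended on the linking gap. With 5 kb they were 22.9% of all mid-sized groups, 8.04% of compact and 47.1% of spread ones, and with 20 kb they were 9.93%, 1.15% and 16.2%. The 1 compact group, named after its value was seen, had 4 peaks at 88663842 to 88665411 of chromosome 14, 36.47 kb from a dense group. The 39 groups near dense ones had a median span of 7.97 kb (6.25 to 11.11), and the other 222 a median of 2.63 kb (2.05 to 3.19).

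The shares followed the same order by span among groups of equal or similar peak number, though most of their intervals overlapped. Of groups of 3 peaks, 0 of 73 compact ones lay within 100 kb of a dense group, which allows a share of up to 4.11% by the limit of 3 counts and 4.93% by the exact interval, against 7 of 53 intermediate ones (13.2%, 5.48% to 25.3%). Of the 5 spread groups of 3, the 1 near a dense group was on chromosome 10 at 59147662 to 59158771. Of groups of 4 or 5 peaks, 1 of 21 compact (4.76%, 0.12% to 23.8%), 12 of 52 intermediate (23.1%, 12.5% to 36.8%) and 5 of 12 spread ones (41.7%, 15.2% to 72.3%) were near. Of groups of 6 to 9 peaks, 5 of 26 intermediate (19.2%) and 8 of 19 spread ones (42.1%) were. In all sizes the intervals of intermediate and spread groups overlapped, and at 4 or 5 peaks the compact interval overlapped both. No group of 6 to 9 peaks was compact. The only intervals that did not overlap were those of compact and intermediate groups of 3 peaks. No test of these differences was made.

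**Figure D4:**
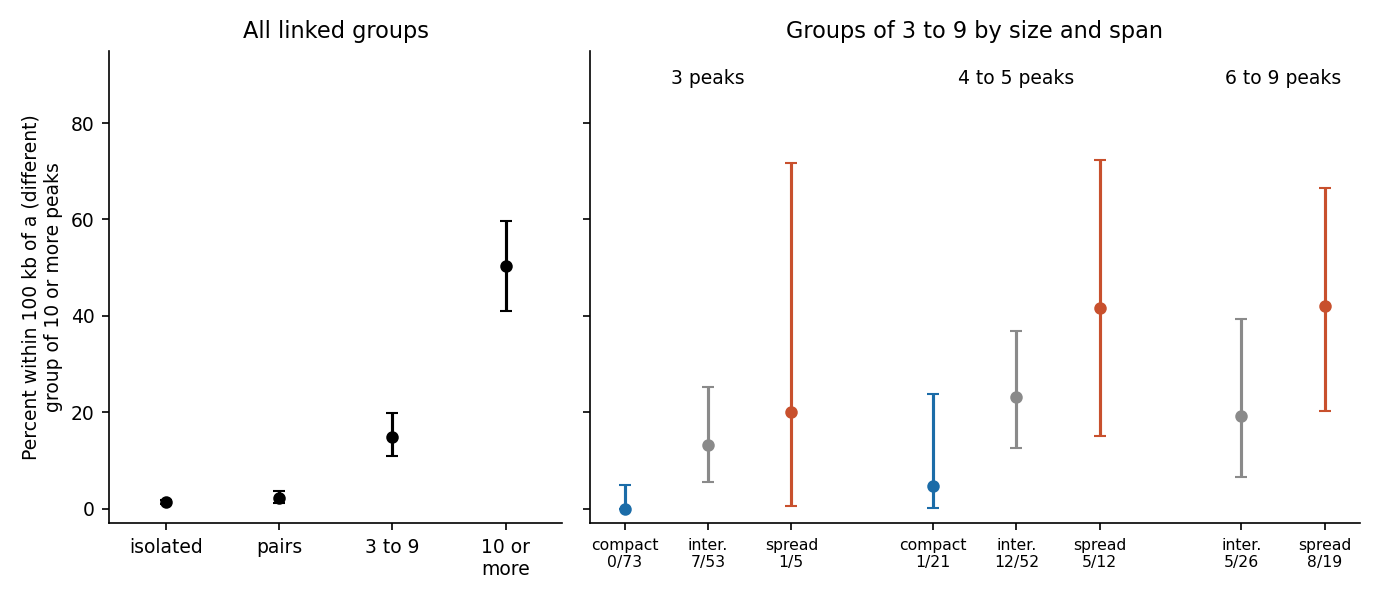
Percent of linked groups that lie within 100 kb of a dense group (10 or more peaks), for all classes on the 17 chromosomes (left) and for the mid-sized groups by number of peaks and span class (right, with counts; inter. is intermediate); points are shares and bars exact 95% binomial intervals. The share is 1.41% for isolated peaks and 14.9% for groups of 3 to 9, and 0 of 73 compact groups of 3 peaks are near a dense group.

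The 39 groups came from 23 places when those within 1 Mb of each other were counted once, on 12 chromosomes, and 3 places held 14 of them (35.9%). On chromosome 11, from 35131522 to 36104551, 5 mid-sized groups with 25 peaks lay among 7 dense groups, counting those inside the stretch or within 100 kb of it. On chromosome 14, from 87969842 to 88665411, 5 groups with 23 peaks lay among 5 dense groups, and from 66596342 to 67268931, 4 groups with 20 peaks lay among 8. Chromosome 14 held 9 of the 39, and without it the share was 12.4%. Of the 261 mid-sized groups, 54 (20.7%, interval 15.9% to 26.1%) had another mid-sized group within 100 kb, in 23 chains of at most 4. The share of other classes with a mid-sized group that close was not computed. This count therefore does not show that mid-sized groups lie closer to each other than to other groups.

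Across chromosomes the groups averaged 0.105 per Mb, where length means the last listed position of each chromosome. Density was highest on chromosome 7, at 0.159 per Mb (27 groups, exact 95% Poisson interval 0.105 to 0.231), and on chromosome 10, at 0.158 (15 groups, 0.0885 to 0.261). It was lowest on chromosome 12, at 0.0282 (3 groups, 0.00581 to 0.0823), and on chromosome 4, at 0.0537 (9 groups, 0.0246 to 0.102). The intervals of chromosomes 7 and 10 held the average. As a share of all linked groups, mid-sized groups were 7.78% on chromosome 7, 8.93% on 10, 2% on 12 and 3.30% on 4. Over the 17 chromosomes that share was 6.54%, and it was highest on chromosome 13, at 9.09%. The makeup by span also varied. Chromosome 10 held 1 compact and 7 spread groups of its 15, whereas chromosome 1 held 15 compact and 2 spread groups of its 33. Chromosome 2 had no dense group and no spread group, with 8 compact and 7 intermediate groups.

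**Figure D5:**
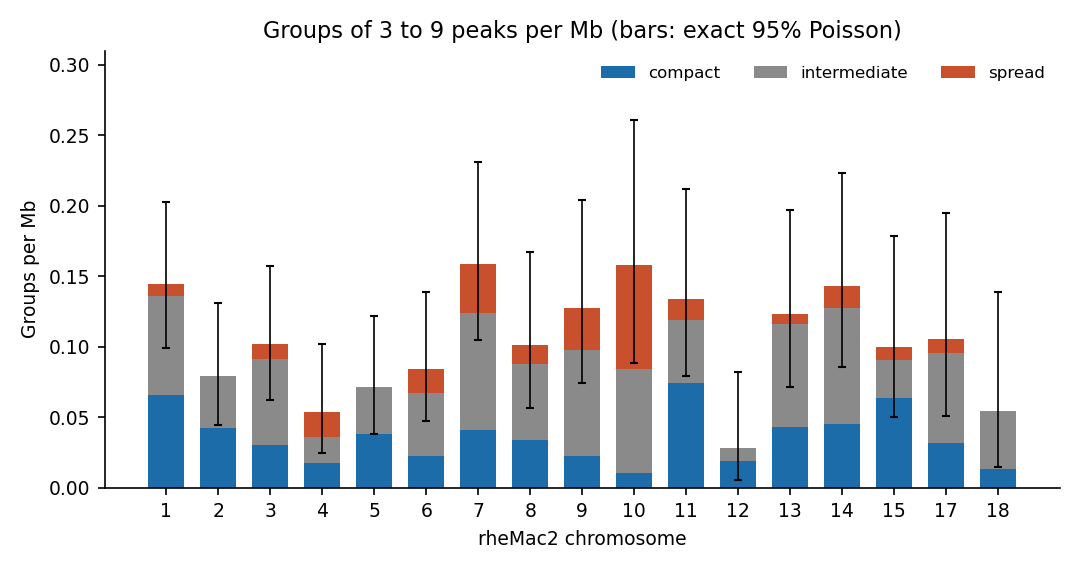
Mid-sized groups per Mb on each of the 17 rheMac2 chromosomes, with length read from the last listed position; stacked colours are span classes and black bars exact 95% Poisson intervals of the total. Chromosome 12 is lowest at 0.0282 per Mb, and 7 of the 15 groups of chromosome 10 are spread.

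A few groups lay at the ends of chromosomes and were noted after their values were seen. Linked groups of all sizes were not counted in these end windows, so the counts below do not show that mid-sized groups favour ends. The last window is set from the last peak, so it always holds one. The first 1 Mb of the 17 chromosomes held 10 groups, of which 4 were on chromosome 17, at 25282 to 37651, 186882 to 196131, 278422 to 281271 and 479002 to 482711. These 4 had 5, 8, 5 and 3 peaks and spans of 2.85 to 12.37 kb, and their nearest dense group was at least 8653 kb away. The last 1 Mb before the last peak held 6 groups, of which 3 were on chromosome 7, at 169718982 to 169727291, 169765662 to 169777671 and 169797882 to 169801331. The third of these is the most compact group of 9 peaks, and its last peak is the last listed on that chromosome. The final peaks of chromosomes 1 and 15 also belonged to such groups, of 3 peaks at 228250602 to 228252231 and of 4 peaks at 109987042 to 109993131.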

How the data were processed

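The deposited file gives peak positions (sequence, start, end) on rheMac2 at a false discovery rate of 0.01, both per the file name. Bowtie 0.12.7 is named in the submitters' processing notes. The peak caller, its settings and any use of total H3 in calling were not given in the sources used here. Baboon reads on a macaque assembly can be lost, or pile up, where the genomes differ, and the list can break a single marked region into several short peaks. Starts were read as counted from 0 and are printed counted from 1. Linking, runs, spans and distances were computed with Python 3.11.15, numpy 2.4.6 and scipy 1.17.1, checked on simulated peaks, and drawn with matplotlib 3.10.9. Gaps run from end to next start.

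Named regions were the 5 smallest and 5 largest spans, the 3 most compact groups of 9 peaks, the 3 groups with most wide peaks, the 3 with most runs, the 3 widest peaks and the 2 highest and 2 lowest chromosomes by density, with ties broken by position. The groups and this rule were chosen with earlier results of these data known. Alternatives covered the linking gap, merging, chromosomes, and the limits for runs, compactness and nearness. No promoter or peak sequence was read.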

Additional observations from a re-analysis of the deposited data

Results flagged for a closer look

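The unplaced sequence chrUr, which entered no comparison, held 20 of its 102 peaks (19.6%) in 5 groups of 3 to 9, against 12.6% of the peaks on the 17 chromosomes. It was noted because it holds signal outside the main measurement, and the difference was not tested. The share was not unusual among sequences outside the rule, with 24.6% on chromosome 19, 17.3% on 16, 11.8% on X and 1.91% on 20. These groups lay at 10402 to 18771, 42282 to 51331, 146262 to 159531, 231422 to 232351 and 336042 to 339531, with spans of 0.93 to 13.27 kb.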

How the results depend on the processing

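Of 54 values recomputed under an alternative, 31 stayed within the interval of the reported value, or within 1.5 times a reported count, and 23 moved. The number of groups (183 to 305) and of their peaks (859 to 1284) stayed within that limit under all 4 alternatives tried for them. So did the share of wide peaks (1.40% to 1.71%) under its 3. The lowest counts, 183 and 859, came from merging peaks at 500 bp first, so the 859 are merged intervals and not listed peaks. Similar totals do not show that the same groups were kept. With a linking gap of 5 kb, the median span was 2.62 kb, 22.9% of groups were within 100 kb of a dense group, and 8.04% of compact groups were. With 20 kb, the median span was 5.15 kb, the share near dense groups 9.93% and that of spread groups 16.2%. With peaks merged at 500 bp first, the median span was 9.05 kb, 2.19% were compact, 8.74% were 1 run, the median centre distance was 1120 bp, 21.9% lay near dense groups, and 0% of 4 compact groups did. Merging removes short gaps, so it changes these values by construction. Without groups of 3 peaks, which was tried after seeing the data, the median span was 5.92 kb, 16.15% were compact and 24.6% were 1 run. Joining runs at 500 bp or 2 kb gave 19.5% or 56.3% as 1 run, a compact limit of 1 or 4 kb gave 13.03% or 56.7%, and nearness within 500 kb gave 23.4%. Centre distances over gaps of at most 500 bp or 2 kb had medians of 320 and 480 bp. Without chromosome 14, 0% of 88 compact groups lay near a dense group, which allows up to 3.41% by the limit of 3 counts and 4.11% by the exact interval. Spread groups were near dense groups more often than compact ones under each of the 5 alternatives tried for both, all chosen after seeing the data. With merging, however, the exact interval for 0% of 4 compact groups reached 60.2% and held the spread share of 33.75%. That alternative therefore cannot show the order. Counted by place, with groups within 1 Mb joined, 23 of 179 places (12.8%) were near. No paired analysis was possible because there is 1 library and no test. Leaving out replicates was likewise not applicable. Without a known read depth, a missing peak does not show a missing mark.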

Other observations

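Groups of 3 to 9 peaks on chromosomes 16, 19, 20 and X lie outside the rule and were used only in the alternative that added these chromosomes. Chromosome 19 held 22 of them with 104 peaks and a median span of 6.02 kb (range 0.85 to 25.29 kb). Chromosome 16 held 14 with 58 peaks and a median of 3.04 kb. Chromosome X held 7 with 24 peaks, all spanning 1.05 to 3.25 kb. Chromosome 20 held 1, of 3 peaks at 66350802 to 66352031.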
